A study of Mus musculus with 2 samples.

Results

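Integrins and one of their ligands were examined in regulatory T cells (Tregs) sorted from the spleen and the injured lung. The group holds 10 genes chosen by symbol, Itgae, Itgal, Itgam, Itgax, Itga1, Itga4, Itgb1, Itgb2, Itgb7 and Icam1, and all 10 were found among the 24346 gene symbols listed in each library. The cells came from FDG mice, which carry Foxp3-DTR-GFP, so that GFP marks cells expressing Foxp3. Mice of 10 to 16 weeks received 50 μg of bleomycin (BLM) intratracheally, and on day 15 GFP+CD4+ cells were sorted from both organs. The cells of 3 mice were pooled into 1 RNA-seq library per tissue. Both libraries carry the same allele and the same agent, and no library of untreated mice or of other T cells was analysed here, so the values compare tissues and say nothing of the effect of BLM.

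Integrins are receptors made of an α and a β chain, which bind ligands on other cells or in the matrix, and a chain reaches the cell surface only in a pair. In T cells, αLβ2 (LFA-1) binds ICAM-1 and supports contact with antigen-presenting cells and crossing of vessel walls. The α4 chain pairs with β1 to bind VCAM-1 and fibronectin, or with β7 to bind MAdCAM-1 of mucosal vessels. The αE chain (CD103) pairs with β7, binds E-cadherin of epithelial cells, and is known from T cells that stay in tissues, while α1β1 binds collagen. The αM (CD11b) and αX (CD11c) chains pair with β2 and are best known from macrophages, neutrophils and dendritic cells, although activated lymphocytes can carry them too.

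The genes lie on 8 chromosomes of GRCm38 (mm10). Itgal (chromosome 7, 127296260 to 127335138, plus strand), Itgam (128062640 to 128118491) and Itgax (128129547 to 128150657) lie in one stretch of chromosome 7. Only 11055 bases separate Itgam from Itgax, and Itgad, which codes for a further β2 partner, starts 3718 bases after Itgax. Itgae is on chromosome 11 (73090583 to 73147446), Itga4 on chromosome 2 (79255426 to 79333123), Itga1 on chromosome 13 (114953096 to 115101964, minus strand), Itgb1 on chromosome 8 (128685654 to 128733200), Itgb2 on chromosome 10 (77530252 to 77565708), Itgb7 on chromosome 15 (102215995 to 102231944, minus strand) and Icam1 on chromosome 9 (21015985 to 21028817). Each is annotated as protein-coding. Exons of Itga4 overlap those of Cerkl, which was at 5.91 FPKM in splenic and 9.64 in lung cells, and exons of Itgam, Itga1 and Icam1 overlap annotated genes of predicted names (Gm49368, Gm49395 and Gm47079). Whether the counting used strand is not given in the sources used here, so reads in those overlaps cannot be told apart.

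Upstream sequences are shown for the neighbours Itgam and Itgax and for Icam1, which all had over 2-fold higher levels in lung (values below). They were taken from RefSeq (GRCm38.p6), which matched 7 of the 10 genes, and stop before the first annotated transcript start. They are chr7:128062390-128062639, chr7:128129300-128129525 and chr9:21015690-21015939, all on the plus strand and 5′ to 3′. Capitals mark the motifs searched on both strands. They are GAGGAA, a form of the site bound by ETS factors such as PU.1 of myeloid cells, and GGAAATTCC, a form of the NF-κB site.
Itgam: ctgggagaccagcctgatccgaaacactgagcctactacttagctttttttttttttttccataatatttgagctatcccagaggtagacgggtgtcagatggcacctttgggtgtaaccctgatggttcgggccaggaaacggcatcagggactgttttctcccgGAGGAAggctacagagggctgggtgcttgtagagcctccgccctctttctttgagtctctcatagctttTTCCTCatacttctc
Itgax: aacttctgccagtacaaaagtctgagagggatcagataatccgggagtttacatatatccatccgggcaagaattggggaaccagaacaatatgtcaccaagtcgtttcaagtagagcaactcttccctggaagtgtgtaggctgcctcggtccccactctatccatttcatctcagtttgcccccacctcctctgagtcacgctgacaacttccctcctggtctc
Icam1: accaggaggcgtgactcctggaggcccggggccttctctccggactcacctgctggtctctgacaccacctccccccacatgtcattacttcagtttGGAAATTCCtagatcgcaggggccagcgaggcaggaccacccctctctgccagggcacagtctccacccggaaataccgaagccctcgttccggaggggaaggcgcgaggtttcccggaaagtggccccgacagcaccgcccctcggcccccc

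The window of Itgam holds GAGGAA on either strand, at -84 to -79 and at -15 to -10 from the RefSeq start, and that of Icam1 holds GGAAATTCC at -153 to -145. Itgb1, which was within 2-fold, holds GAGGAA too, at -9 to -4. In Itgax neither form was found, and shorter or other forms of these sites were not searched. Among 32851 windows of 250 bases in the same table, 23.3% hold the first motif and 0.286% the second. These matches describe letters only, and no binding was measured.

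Levels are given as FPKM, the fragments of a gene scaled by transcript length and by library size, which allows genes of different length to be compared. From the steps between low values, 1 read at an effective length of 1 kb was estimated to be worth 0.0964 FPKM in splenic and 0.0849 in lung cells, and the reads over genes of known length summed to 9642353 and 12624975. Intervals below are 95% intervals from these estimated reads. They cover counting error only, are too narrow where PCR copied a molecule, and hold no variation between mice, since each tissue has 1 library and no test or p-value was possible. Tissues were compared as the lung FPKM over the splenic FPKM after values under 0.1 had been set to 0.1. Foxp3, which drives the GFP of the sort, was at 18.7 FPKM in splenic and 41.8 in lung cells, and Cd4 was at 195 and 179. Among 5 Treg genes, those over 2-fold higher in lung numbered 2 and those over 2-fold lower 0, and Actb was at 1325 and 1242. The summed level of 8 T cell genes was 3368 and 3154 FPKM, with a median log2 ratio of -0.23.

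In splenic Tregs the β chains were the highest of the group. Itgb7 was at 444 FPKM, Itgb2 at 266 and Itgb1 at 129, followed by Itgal at 110, Icam1 at 63.8, Itga4 at 27.3, Itgae at 10.8, Itgam at 1.45, Itgax at 1.36 and Itga1 at 0.301. In lung Tregs the same β chains led, with Itgb7 at 443, Itgb2 at 340 and Itgb1 at 149 FPKM, followed by Icam1 at 139, Itgal at 60.6, Itgae at 55.4, Itga4 at 32.9, Itgax at 24.1, Itgam at 5.85 and Itga1 at 0.0147. Itgal led the α chains in both tissues, but in lung Itgae was within 1.09-fold of it, while in spleen Itgal was 10.2-fold higher. In spleen the counting intervals of Itgam and Itgax overlapped, and no other neighbours in either order did.

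**Figure D1:**
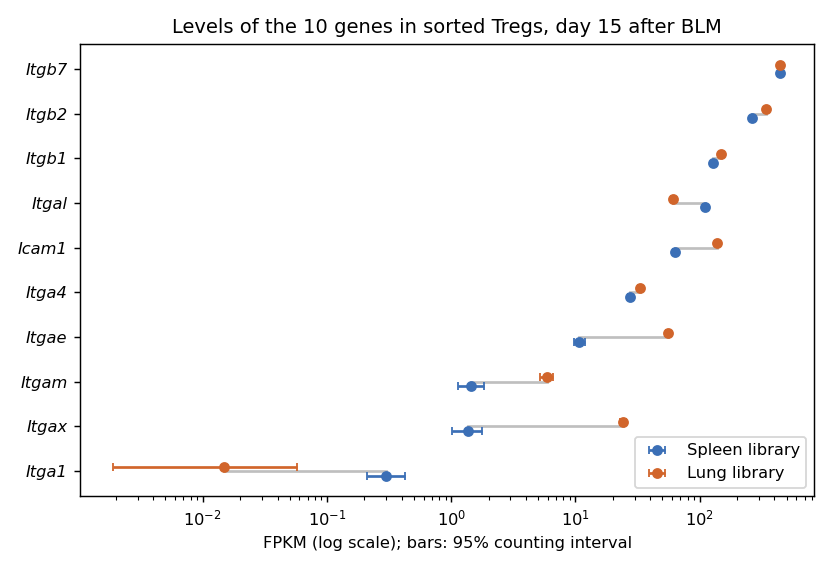
FPKM of the 10 genes (log axis) in the splenic (blue) and the lung (orange) library, 1 library each, with 95% counting intervals as bars that are often narrower than the point. Itgb7 points lie at 444 and 443 FPKM, whereas Itgae, Itgam, Itgax and Icam1 lie to the right in lung and Itgal and Itga1 to the left.

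Of the 10 genes, 4 were over 2-fold higher in lung (Itgae, Itgam, Itgax and Icam1), 1 was over 2-fold lower (Itga1) and 5 were within 2-fold. Of all genes, 12094 reached 1 FPKM in at least one library, and 17.8% of these were over 2-fold higher and 15.5% over 2-fold lower. Itga1 is under 1 FPKM in both libraries and is not among these genes. Of the 8 members that reached 10 FPKM in a library, 3 were over 2-fold higher and 0 lower, against 11.6% and 9.15% of 7279 such genes. Itgax reached 10 FPKM through the lung library alone, where it is high, and the 7279 genes were filtered by the same rule. As a log2 ratio, the median of the 10 genes was 0.31 and that of the 12094 genes 0.03. With 10 genes these counts are a description of the group. No member was over the 20-fold used in the study to define genes of lung Tregs. Itgax was the nearest at 17.7-fold, its counting interval (13.5 to 23.8) spans that threshold, and with the T cell list as the base its log2 ratio of 4.37 lay past it.

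**Figure D2:**
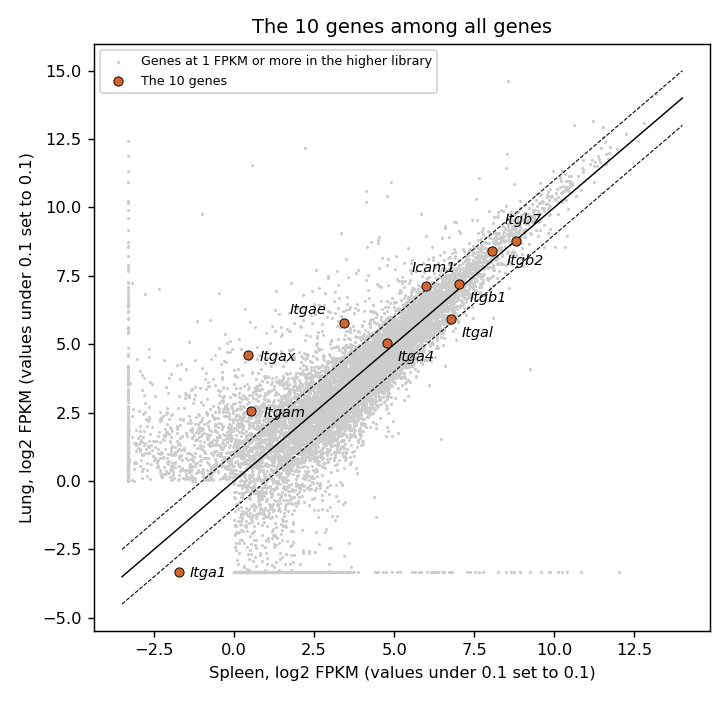
Each grey point is a gene that reached 1 FPKM in a library, placed by its log2 FPKM in spleen (x axis) and lung (y axis), with values under 0.1 set to 0.1. The solid line marks equal levels and the dashed lines 2-fold, and Itgax, Itgae, Itgam and Icam1 (orange) lie above the upper dashed line while the β chains and Itga4 lie near the solid line.

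Itgae, the α chain of the E-cadherin receptor, was at 10.8 FPKM in spleen (interval 9.72 to 11.8, about 405 reads) and at 55.4 in lung (53.2 to 57.7, about 2371 reads). It was thus 5.15-fold higher in lung (4.64 to 5.74), and 91.2% of the 12094 genes had a lower ratio. Its only partner, Itgb7, was at 444 FPKM in spleen (436 to 452) and 443 in lung (435 to 451), a ratio of 0.999 (0.974 to 1.02). The α chain of this receptor thus lay apart in the 2 libraries by more than counting error, while the intervals of its β chain overlapped. Foxp3 was 2.23-fold higher in lung, so that Itgae stood at 0.574 times the Foxp3 level in spleen and 1.32 times in lung. CD8 T cells of tissues also carry αE. The sort was gated on CD4, and how pure the sorted cells were is not known from these values. Of the 6 genes of the NK and CD8 T cell list, 2 were over 2-fold higher in lung, Cd8a (4.13 and 12.2 FPKM) and Cd8b1 (19.9 and 74.8), and 2 over 2-fold lower, Eomes (1.68 and 0.0246) and Ncr1 (2.69 and 0). The part of such cells in the Itgae value was not tested.

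Itga4, the other partner of β7, was at 27.3 FPKM in spleen (26.29 to 28.36) and 32.9 in lung (31.86 to 33.99), a 1.21-fold difference (1.15 to 1.27) that lies outside counting error but becomes a lower value in lung, a log2 ratio of -0.16, once both libraries are rescaled to the same sum (TPM). Among the β7 partners, Itgae made up 28.2% of the summed α level in spleen and Itga4 71.8%. In lung the order was the other way round, with 62.7% for Itgae and 37.3% for Itga4. These shares are within a library and cannot be changed by its scaling. The partners together were at 38.1 FPKM in splenic and 88.3 in lung cells, and Itgb7 exceeded them 11.7-fold in spleen and 5.02-fold in lung. Itga4 is counted here for β7 although it also pairs with β1, since RNA levels do not tell how it is shared.

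**Figure D3:**
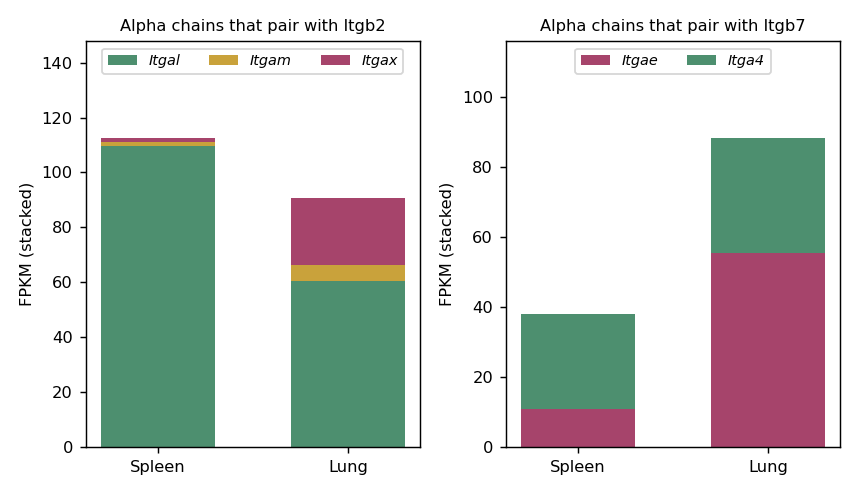
Stacked FPKM of the α chains that pair with β2 (left panel, Itgal, Itgam and Itgax) and with β7 (right panel, Itgae and Itga4) in the splenic and the lung library. Itgax takes 26.6% of the β2 bar in lung against 1.21% in spleen, and Itgae takes 62.7% of the β7 bar against 28.2%.

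Itgal, the α chain of LFA-1, was at 110 FPKM in spleen (107 to 113) and 60.6 in lung (58.6 to 62.6). It was 1.81-fold higher in spleen (1.74 to 1.89), the reverse of Itgam and Itgax, and on the TPM scale its log2 ratio of -1.29 lay past 2-fold. Cd3e, a chain of the T cell receptor complex, was 1.39-fold higher in spleen, so that Itgal was at 0.214 of the Cd3e level there and at 0.164 in lung. Itgb2, the common β chain, was at 266 FPKM in spleen (260 to 272) and 340 in lung (334 to 346), 1.28-fold higher in lung (1.24 to 1.32) with a log2 ratio of 0.36, which became -0.08 on the TPM scale.

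Itgax, which codes for αX (CD11c), was at 1.36 FPKM in spleen (1.02 to 1.77, about 54.3 reads) and 24.1 in lung (22.7 to 25.6, about 1090 reads). With a 17.7-fold higher level in lung (13.5 to 23.8) it had the largest ratio of the 10 genes, and 96.4% of the 12094 genes had a lower one. Itgam, which codes for αM (CD11b), was at 1.45 FPKM in spleen (1.12 to 1.84, about 66.8 reads) and 5.85 in lung (5.22 to 6.54, about 307 reads), which is 4.05-fold higher (3.09 to 5.34). The intervals of these neighbouring genes overlapped in spleen, and in lung Itgax was 4.13-fold above Itgam. Itgad, next to them on chromosome 7, went the other way, with 5.57 FPKM in spleen (about 217 reads) and 0 in lung. With its 0 in lung credited with 3 reads, or 0.0678 FPKM, Itgad was 82.2-fold lower there. Its 95% interval in lung reached 0.0834 FPKM.

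Itgal made up 97.5% of the summed level of Itgal, Itgam and Itgax in spleen and 66.9% in lung. Itgam took 1.28% in spleen and 6.46% in lung, and Itgax 1.21% and 26.6%. With Itgad included, its share was 4.72% in spleen and 0 in lung, and that of Itgal in spleen 92.9%. The sum of the 3 chains was 113 FPKM in splenic and 90.6 in lung cells, and Itgb2 exceeded it 2.36-fold and 3.75-fold.

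Other cells also carry Itgam and Itgax, whose log2 ratios were 2.02 and 4.14. With 1 library per tissue, a shared direction does not show that genes change together. All 11 genes of a fixed macrophage and monocyte list were higher in lung, 8 of them over 2-fold, with a median log2 ratio of 2.17. Their summed level was 662 FPKM in splenic and 26112 in lung cells, or 285 and 1165 without Lyz2, and none was at 0 in either library. The members of that list did not move alike, since Cd68 was 8.57-fold higher in lung, and Csf1r, the receptor for a macrophage growth factor, was 1.14-fold higher. On the TPM scale, which shifts log2 ratios by -0.43, Csf1r (log2 ratio 0.19) and Mrc1 (0.30) become lower in lung. Dendritic cell genes summed to 11.9 FPKM in splenic and 31.1 in lung cells, with 2 of 6 over 2-fold higher and 2 lower. Zbtb46 (1.70 and 11.5 FPKM) and Cd209a (3.86 and 15.3) were the higher ones, and Flt3 (1.43 and 0.172) and Clec9a (0.642 and 0) the lower. Neutrophil genes summed to 428 and 1200, with 3 of 7 over 2-fold higher and 2 lower. Csf3r (4.06 and 26.4 FPKM), S100a8 (276 and 804) and S100a9 (120 and 328) were the higher ones. The granule genes Mpo (1.86 and 0) and Elane (1.76 and 0) were the lower. The dendritic cell and neutrophil lists thus had members on either side. Of the genes at 0 in lung, Clec9a had about 4.38 reads in spleen, Elane about 14.2 and Mpo about 48.9. B cell genes summed to 253 and 132, with 3 of 6 over 2-fold lower and none at 0. Endothelial genes summed to 54.99 and 38.6, of which Pecam1 alone was 54.8 and 31.7. The 2 of 4 over 2-fold higher were Cldn5 (0.160 and 6.54 FPKM) and Cdh5 (0 and 0.382). Kdr was at 0.0368 FPKM in spleen, about 2.18 reads, and at 0 in lung. The NK and CD8 T cell list, given above, summed to 46.0 and 112. Antibodies to CD11b and CD11c, the products of Itgam and Itgax, were part of the lineage gate in other sorts of the study, while for these libraries GFP and CD4 are the markers named. In bulk libraries fewer cells of a type and less RNA per cell cannot be told apart. The part of other cells in the values of Itgae, Itgam, Itgax, Itgad, Itgb2 and Icam1 was not tested in either tissue.

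**Figure D4:**
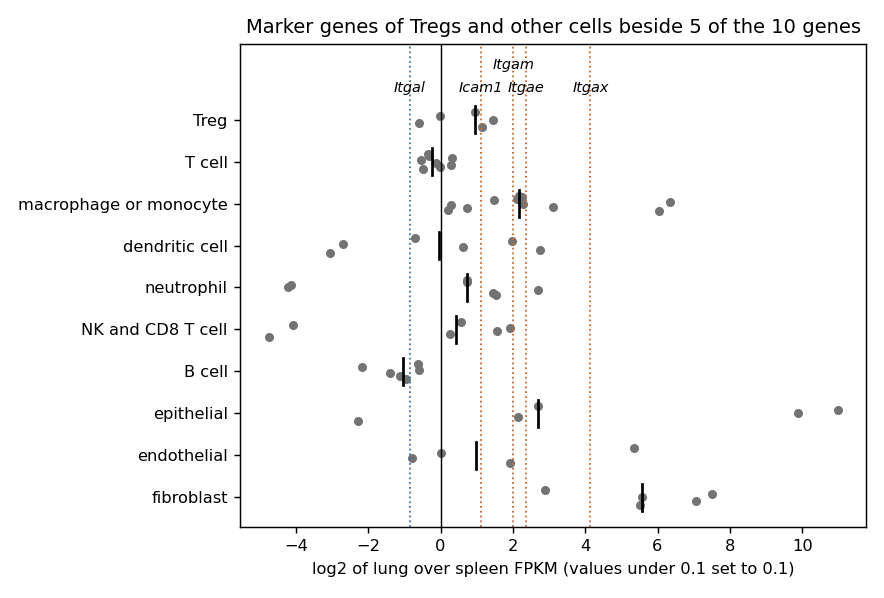
Log2 of lung over spleen FPKM (values under 0.1 set to 0.1) for each gene (grey point) of 10 marker lists, with the list's median as a black bar and dotted lines at 5 of the 10 genes. The macrophage or monocyte genes all lie right of 0 with a median of 2.17, the B cell genes all lie left of 0, and the T cell genes lie between -0.55 and 0.31.

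Itgb1, the β chain of the collagen and fibronectin receptors, was at 129 FPKM in spleen (125 to 133) and 149 in lung (145 to 153), a ratio of 1.15 (1.11 to 1.20). Its log2 ratio of 0.21 became -0.22 on the TPM scale, so that its direction depends on how the libraries are scaled. Itga1, the α chain of the collagen receptor VLA-1, was the lowest of the group in both tissues. It was at 0.301 FPKM in spleen (0.211 to 0.426, about 33.6 reads) and at 0.0147 in lung (0.00191 to 0.0570, about 1.86 reads). The ratio of these values was 20.4-fold in favour of spleen with a wide interval (4.95 to 166), and 3.01-fold with values under 0.1 set to 0.1. Itga1 RNA was thus near the lower limit of detection in lung. Of the 12 α chains that can pair with β1, Itga4 held the highest share in both tissues, 42.4% of the summed level in spleen and 47.4% in lung. Itga6, of a laminin receptor, held 34.7% in spleen and 9.91% in lung.

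Icam1, the ligand of LFA-1 and Mac-1, was at 63.8 FPKM in spleen (60.6 to 67.0) and 139 in lung (135 to 143). It was 2.18-fold higher in lung (2.05 to 2.31), and on the TPM scale its log2 ratio of 0.69 was within 2-fold. Icam2, a related ligand of LFA-1, was 1.47-fold higher in spleen (80.9 FPKM against 55.04), and Icam1 went from 0.788 of the Icam2 level in spleen to 2.52 times that level in lung. Of 17 further ligand genes fixed as a list, 11 reached 1 FPKM. Of these, 8 were over 2-fold higher in lung and 1 over 2-fold lower, against 17.8% and 15.5% of the 12094 genes. The median log2 ratio of the 11 was 3.54. The highest ratios were those of Spp1 (4.62 FPKM in splenic and 4560 in lung cells), which codes for osteopontin, of Col1a1 (0.129 and 5.94), a collagen chain, and of Fn1 (0.857 and 33.4), which codes for fibronectin. Fibroblast genes, which include Col1a1, summed to 0.290 FPKM in splenic and 47.0 in lung cells, with all 5 over 2-fold higher and Col3a1 and Pdgfra at 0 in spleen, and epithelial genes to 10.97 and 3122, with 4 of 5 over 2-fold higher and Sftpc at 0 in spleen. Macrophage and monocyte genes, given above, summed to 662 FPKM in splenic and 26112 in lung cells. The part of fibroblasts, epithelial cells and macrophages in the ligand values was not tested. Cdh1, which codes for the E-cadherin bound by αEβ7, was at 0.252 FPKM in spleen (about 11.1 reads) and 1.11 in lung. Vcam1, the ligand of α4β1, was at 72.9 FPKM in spleen (about 2464 reads) and 0 in lung. With 3 reads credited to lung it was 932-fold lower there. The splenic library also held RNA of macrophage genes, and the part of other cells in the Vcam1 value was not tested. Thy1, which can bind β2 integrins, was at 36.1 and 42.5. Madcam1, the ligand of α4β7, was at 0.159 FPKM in spleen, about 1.62 reads, and at 0 in lung.

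The integrin chains listed number 26, and the 9 described above held 94.2% of their summed FPKM in spleen and 93.8% in lung. Of the 26 chains, 18 were at 1 FPKM or more in spleen and 17 in lung. Itgb7 alone was 51.9% of the level of all 8 β chains in spleen and 45.7% in lung. Among the 18 α chains, the share of Itgal was 56.1% in spleen and 28.1% in lung, that of Itgae 5.50% and 25.7%, and that of Itgax 0.698% and 11.2%. The sum over α chains was 196 and 215 FPKM, and the β chains exceeded it 4.37-fold and 4.50-fold. Of the 17 other chains, 12 reached 1 FPKM, of which 4 were over 2-fold higher in lung and 4 over 2-fold lower, with a median log2 ratio of 0.46. The higher ones were Itga3 (0.665 and 5.70 FPKM), Itgb5 (5.93 and 22.4), Itga5 (2.44 and 8.95), which forms the classical fibronectin receptor with β1, and Itga2 (0.385 and 1.40). Itga6, named after its values were seen, was lower (22.3 and 6.89 FPKM), and Itga9, Itga2b, a chain of platelets, and Itgad were listed at 0 in lung, at least 21.9-fold, 28.0-fold and 82.2-fold lower. Within 2-fold were Itgav at 7.89 and 12.0 FPKM and its partners Itgb8 at 4.34 and 6.12 and Itgb3 at 6.08 and 8.17.

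**Figure D5:**
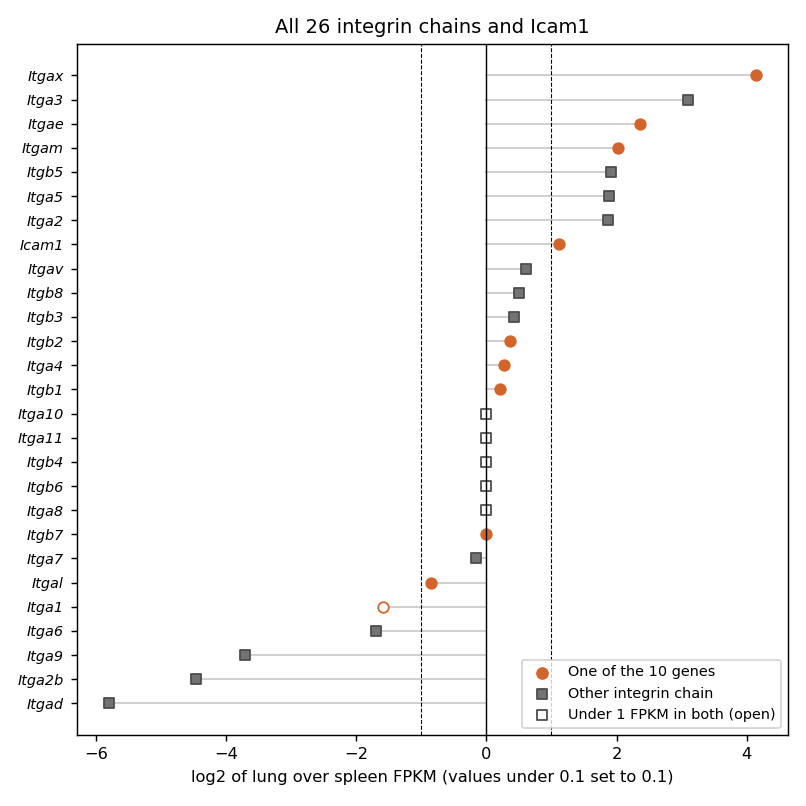
Log2 of lung over spleen FPKM (values under 0.1 set to 0.1) for the 26 integrin chains and Icam1, with orange circles for the 10 genes, grey squares for the other chains and open symbols for genes under 1 FPKM in both libraries. Itgax has the highest ratio at 4.14 and Itgad, its neighbour on the chromosome, the lowest at -5.80.

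The genes that control the switch of integrins to their active form, among them inhibitors, were mostly within 2-fold, as were most genes. Of the 12094 genes at 1 FPKM or more, 17.8% were over 2-fold higher in lung and 15.5% over 2-fold lower. Of 22 genes of inside-out activation, by which signals in the cell open the integrin, 20 reached 1 FPKM, of which 1 was over 2-fold higher in lung, 0 were lower and the median log2 ratio was -0.31. The exception was Fermt2 (0 FPKM in splenic and 4.90 in lung cells), a kindlin of adherent cells. It was 52.2-fold higher in lung with 3 reads credited to spleen. Talin (Tln1) was at 53.7 and 30.6 FPKM, Sipa1, which turns off Rap1, at 48.6 and 26.7, and Rapgef1, which turns Rap1 on, at 22.6 and 12.9. The inhibitors Dok1 and Sharpin were at 11.2 and 17.4 and at 51.2 and 74.2. Of 26 genes of the adhesion complex and its membrane partners, 24 reached 1 FPKM, of which 3 were over 2-fold higher and 3 over 2-fold lower, with a median log2 ratio of 0.05. Parva, which links integrins to actin, was at 0 FPKM in splenic and 4.57 in lung cells, Cd9, a tetraspanin, at 96.3 and 634, and Src at 1.48 and 3.99. Actn1 was at 17.98 and 7.82 FPKM, paxillin (Pxn) at 8.80 and 1.82, and Ptk2, the focal adhesion kinase, at 1.99 and 0.222.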

How the data were processed

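Bulk RNA-seq libraries of splenic and lung GFP+CD4+ cells of BLM-treated FDG mice were used, 1 per tissue, grouped by the tissue label. Lungs were dissociated with Liberase TM and DNase I. Full-length cDNA (SMART-Seq HT) was amplified by PCR without molecular identifiers and read as 75-base single ends. Alignment to mm10 was done by the authors with TopHat2 2.1.1, Bowtie2 2.2.8 and SAMtools 0.1.18, and they deposited FPKM from Cuffdiff 2.2.1. The annotation, the options of Cuffdiff and the scaling between libraries are not given in the sources used here. The FPKM summed to 599633 in spleen and 808853 in lung.

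Ratios used a floor of 0.1 FPKM. Reads were estimated from GENCODE M21 transcripts tied to RefSeq (23023 symbols with a length) and a mean fragment of 210 bases, from single-length transcripts of at least 1500 nt. Of their genes with up to 10 reads, 74.6% in spleen and 76.9% in lung lay within 0.1 of a whole read. Ratio intervals are exact (Clopper-Pearson), given the summed reads, and level intervals exact Poisson. A library at 0 was credited with 3 reads. Folds of genes at 0 rest on that credit and leave out the counting error of the other library. Nothing was tested, as each tissue has 1 library. All members were named, and of each other list the 3 highest and 3 lowest ratios at 1 FPKM or more, with partner chains and ligands fixed by name. Cd68, Csf1r, Cd8b1, other marker genes and Alcam were named after their values were seen. Members and lists were chosen with earlier results of these data known. One result of the list of other adhesion receptors is not reported here. Settings tried were other floors, pseudocounts, scalings and folds. The calculations were tested on simulated data. Versions were matplotlib 3.10.9, scipy 1.17.1, pandas 2.3.3, numpy 2.4.6 and Python 3.11.15.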

Additional observations from a re-analysis of the deposited data

How the results depend on the processing

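The 4 higher genes stayed over 2-fold higher under every floor, pseudocount and scaling tried, except Icam1 on the TPM scale, where the count was 3. It was also 3 with a fold over 4. The TPM scale lowered all log2 ratios above the floor by 0.43, and scaling to the T cell list raised them by 0.23, while scaling to the median or upper quartile moved them by -0.02 and -0.01. The median log2 ratio of the 10 genes was accordingly -0.12 on the TPM scale and 0.54 with the T cell list as the base, against 0.31. The count of genes over 2-fold lower was 1 as reported, 2 on the TPM scale (Itga1 and Itgal), 2 with a fold over 1.5, 0 with a fold over 4, and 0 with a floor or a pseudocount of 1 FPKM, which lie above the level of Itga1. Itga4, Itgb1 and Itgb2 were lower in lung on the TPM scale and higher under the other settings, and Itgb7 was higher only with the T cell list as the base. The log2 ratio of Itgax ranged from 3.41 to 4.37, the last with the T cell list as the base and past the 20-fold of the study, that of Itgae from 1.93 to 2.60 and that of Itgam from 1.49 to 2.25. With a pseudocount of 1 FPKM the share of Itgax among the β2 partners in spleen was 2.05%. No replicate could be left out, and depth limits Itga1 in both tissues and Itgax and Itgam in spleen. No paired analysis was possible because each tissue has 1 library.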

Other observations

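Adhesion receptors of T cells outside the integrin family were also measured. Of 15 such genes, 4 had a level in lung over 2-fold above that in spleen, with a median log2 ratio of 0.32 over the 15. The share of all 12094 genes at 1 FPKM or more was 17.8%. The 4 were Cd44, Ceacam1, Alcam (log2 ratio 1.02) and Cdh1, the E-cadherin gene named above. On the TPM scale, Cd44 (log2 ratio 1.21 before rescaling) and Alcam fall within 2-fold. Cd44, the hyaluronan receptor of activated T cells, was at 34.997 FPKM in splenic and 81.1 in lung cells, which is 2.32-fold higher. Cd96, which binds nectin family ligands, was at 145 and 72.4. Ceacam1 was at 1.71 and 6.48 FPKM. Cd69, a marker of recent activation and of tissue residence, was at 322 in spleen and 252 in lung.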
